A study of Rattus norvegicus with 16 samples.

Results

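The shared response to chronic mild stress in the rat hippocampus is described here as the set of genes that differed from unstressed controls in the same direction in all 3 stressed groups. A gene was counted as shared when limma gave an adjusted p (Benjamini-Hochberg) under 0.05 against control in each stressed group and the 3 differences had 1 sign. By that rule 670 of 11308 genes tested were shared, of which 352 were higher after stress and 318 were lower. All animals were male Sprague-Dawley rats and the tissue was whole hippocampus, taken after behavioural testing. Control rats were never stressed, whereas the other rats had gone through 8 weeks of chronic mild stress, a procedure in which small unpredictable stressors alternate. Each of the 4 groups (control, depression-susceptible, anxiety-susceptible and insusceptible) had 4 arrays. The insusceptible rats went through the same stress as the other stressed groups, so what all 3 groups have in common in the design is the exposure and not the behavioural outcome. Age and the behavioural limits behind the labels are not given in the sources used here.

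Stress raises circulating glucocorticoids, which enter the brain and act through the mineralocorticoid and glucocorticoid receptors, both abundant in hippocampal neurons. Glucocorticoid signalling induces feedback genes such as Nfkbia, Tsc22d3, Ddit4 and Fkbp5, while neuronal activity and cyclic AMP act through the transcription factor CREB on genes such as Sik1. The hippocampus borders the ventricles, where the choroid plexus, a secretory epithelium that makes cerebrospinal fluid, can be carried along in a dissection; Cldn2, Aqp1, Mfrp and Ttr are among its characteristic transcripts.

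The promoters of 5 genes that carry the main groups of results are shown first, as the 250 bases before the RefSeq start site in assembly GRCr8, 5′ to 3′ on the strand of the gene. Capitals mark matches, on either strand, to TGACG (the half-site bound by CREB) in Sik1, Rasgrf1 and Clk1, to TAATCC (bound by OTX factors) in Mfrp, and to a form of the NF-kappaB site, GGGA and CC with any 4 bases between them, in Nfkbia. Positions count back from the start site.
Sik1, chr20:9958647-9958896, minus strand, matches starting at -191 and -180: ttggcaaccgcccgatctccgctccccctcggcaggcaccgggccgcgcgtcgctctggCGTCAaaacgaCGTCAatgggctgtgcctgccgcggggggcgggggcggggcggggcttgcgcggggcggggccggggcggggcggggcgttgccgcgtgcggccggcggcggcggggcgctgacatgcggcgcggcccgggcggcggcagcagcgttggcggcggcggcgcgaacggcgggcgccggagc
Rasgrf1, chr8:99324736-99324985, plus strand, match starting at -144: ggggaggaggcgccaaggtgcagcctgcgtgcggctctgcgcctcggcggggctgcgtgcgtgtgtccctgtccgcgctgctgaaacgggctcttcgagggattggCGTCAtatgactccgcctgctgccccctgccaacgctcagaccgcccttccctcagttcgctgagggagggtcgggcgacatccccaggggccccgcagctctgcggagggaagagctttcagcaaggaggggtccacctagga
Clk1, chr9:67453181-67453430, minus strand, match starting at -5: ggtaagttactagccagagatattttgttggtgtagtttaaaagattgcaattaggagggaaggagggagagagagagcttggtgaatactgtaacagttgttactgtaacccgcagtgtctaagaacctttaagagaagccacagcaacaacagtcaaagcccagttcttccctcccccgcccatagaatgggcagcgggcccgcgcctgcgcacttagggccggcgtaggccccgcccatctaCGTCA
Mfrp, chr8:53342284-53342533, plus strand, match starting at -99: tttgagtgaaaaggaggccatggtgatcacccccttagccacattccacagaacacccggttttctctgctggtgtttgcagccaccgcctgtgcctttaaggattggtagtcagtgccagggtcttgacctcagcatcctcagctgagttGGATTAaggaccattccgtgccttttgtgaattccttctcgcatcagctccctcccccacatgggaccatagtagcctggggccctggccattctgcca
Nfkbia, chr6:78597073-78597322, minus strand, matches starting at -214 and -31: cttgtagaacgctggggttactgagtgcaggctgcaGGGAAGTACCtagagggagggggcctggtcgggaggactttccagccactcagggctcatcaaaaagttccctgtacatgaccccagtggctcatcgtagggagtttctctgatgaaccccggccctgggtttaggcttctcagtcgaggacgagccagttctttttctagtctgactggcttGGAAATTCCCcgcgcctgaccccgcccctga
How often these letters occur is given beside the same share over other promoters. Of the shared genes that were higher, 297 had a promoter in the RefSeq table, and 68 of them (22.9%) held TGACG. Among the promoters of all genes tested the share was 26% (2406 of 9249), and among all 27457 RefSeq promoters it was 19%. TAATCC lay in 7.34% of the promoters of shared genes that were lower, in 5.04% of those of all genes tested and in 6.33% of all RefSeq promoters. The NF-kappaB form lay in 23.6% of the promoters of shared genes that were lower, in 20.9% of those of all genes tested and in 16.8% of all RefSeq promoters. The promoters of shared genes that were higher held a median of 9 CpG dinucleotides, those of shared genes that were lower 13 and those of all genes tested 14. A match is a description of letters and not a bound site.

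Values below are log2 signals relative to the 75th percentile of their array, so that -5 is a dim spot and 5 a bright one. A probe's brightness depends on its sequence, so levels are compared between samples and not between genes. The arrays lay on 4 slides. Control and depression-susceptible arrays shared slides 1 and 2, with 2 of each on either slide. All anxiety-susceptible arrays were on slide 3 and all insusceptible ones on slide 4, and these were scanned on another day than slides 1 and 2. Only the depression-susceptible group shared slides with control, and for the other groups stress cannot be told apart from slide and scan day. The 75th percentile of the signal was 2997 to 3382 on the first day and 1077 to 1248 on the second, between 62.1% and 74.0% of probes on an array were well above background, and 0 spots were saturated. For most probes with repeated spots, arrays of 1 group on 1 slide differed about as much as the spots of a probe within an array: over 3846 probes with 3 spots, none of them for messenger RNA, the variance ratio was 0.702 to 1.06, against 7.84 to 10.5 between slides. For 37 messenger RNA probes with 10 spots it was 0.597 to 3.01 within and 40.3 to 64.8 between slides; within slides it exceeded the spot noise in 3 of 6 cases (2.49, 2.87 and 3.01), though far less than between slides. Arrays of 1 group on 1 slide were averaged on this basis and counted as 1 sample, which left 6 samples: control on slides 1 and 2, depression-susceptible on slides 1 and 2, and 1 sample each of the anxiety-susceptible and insusceptible groups, which are assumed to vary like the others. The labels do not say whether arrays came from separate animals, so the standard errors (SE) and p-values measure the spread between these samples, which may be technical.

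Considered as the mean of the 3 stressed groups, each weighted equally, 1524 genes were higher than control (13.5% of 11308) and 2550 were lower (22.6%) at an adjusted p under 0.05 in limma. The shared genes are the stricter subset: 3.11% of the genes tested were higher in every stressed group and 2.81% were lower. Taken separately, 983 genes passed against control in the depression-susceptible group (4236 with slide as a block), 3269 in the anxiety-susceptible group and 3242 in the insusceptible group; these comparisons use the same control samples. A further 17 genes passed in all 3 groups with unlike signs. The median difference of the shared genes that were higher was 0.88 in the depression-susceptible, 1.09 in the anxiety-susceptible and 1.03 in the insusceptible group. For the shared genes that were lower it was -0.70, -0.97 and -1.01, beside -0.06, -0.12 and -0.06 over all genes tested. The smallest of the 3 differences exceeded 1 on the log2 scale, a 2-fold change, in 115 of the 352 and in 71 of the 318. The count rested on each of the 4 samples of slides 1 and 2: without the control of slide 1 the shared genes numbered 70 higher and 47 lower, without the control of slide 2 they numbered 61 and 46, and without the depression-susceptible sample of slide 1 or 2 they numbered 58 and 62 or 46 and 64. With the slide-blocked call in the depression-susceptible group, an alternative chosen after seeing the data, they numbered 592 and 1047. When each array was scaled instead by the 75th percentile of probes well above background on all arrays, the median difference of all genes moved from -0.08 to 0.07 and the share of higher genes among the called ones went from 37.4% to 61% for the stressed mean and from 52.5% to 71.3% for the shared genes. With normexp background correction the first of these shares was 53.1%, with no filter on dim probes the second was 63.1%, and with 16 arrays as separate samples it was 31.3%.

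Arrays of the shared genes hardly overlapped between stressed and control rats. All 12 stressed arrays lay above all 4 control arrays for 344 of the 352 higher genes and below them for 314 of the 318 lower genes. Over all genes tested the same was seen upward for 1078 (9.53%) and downward for 2342 (20.7%). Since the rule chose the members on these values, the counts describe them and test nothing. Just inside the rule were Cd24 (differences of -0.51, -1.26 and -1.18, largest adjusted p 0.04986 in limma) and Kdm1b (0.41, 0.52 and 0.42), and just outside it Arpc5 (-0.61, -1.12 and -1.14, largest adjusted p 0.05004 in limma) and Gch1 (-0.44, -0.76 and -0.58). The comparison within slides used only depression-susceptible and control arrays. There, 352 of 352 higher genes and 317 of 318 lower genes kept their sign on both slides, with median differences of 0.86 on slide 1 and 0.89 on slide 2 for the former and of -0.71 and -0.69 for the latter.

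**Figure D1:**
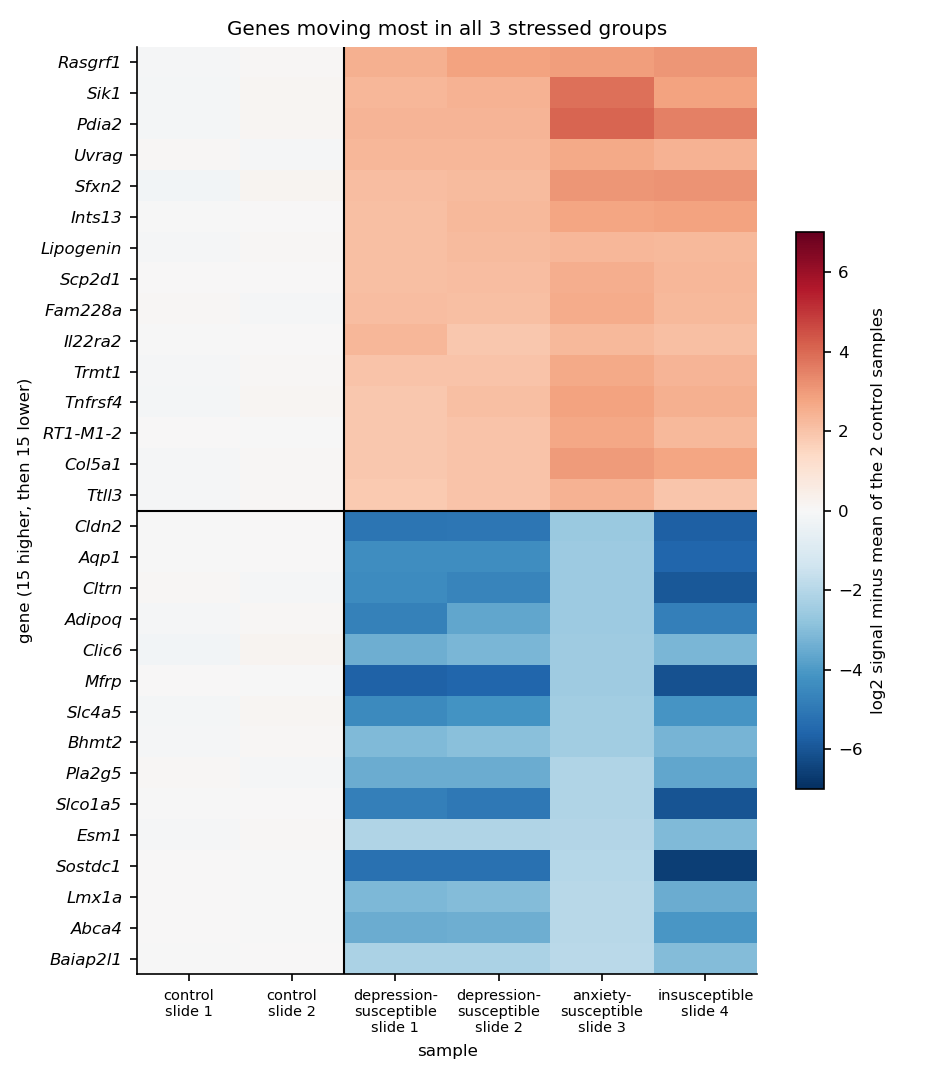
Heat map of the 15 higher and 15 lower shared genes with the largest smallest difference (rows) in the 6 samples (columns). Colour gives the log2 signal minus the mean of the 2 control samples, red for higher and blue for lower; the anxiety-susceptible sample is the palest of the stressed samples for most of the lower genes.

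The genes with the largest rises common to the stressed groups have varied functions, and their signals in control were dim. Rasgrf1, a neuronal exchange factor that activates Ras downstream of calcium and glutamate receptors, stood at -5.77 and -5.61 in the control samples, -3.21 and -2.90 in the depression-susceptible samples, -2.77 in the anxiety-susceptible sample and -2.59 in the insusceptible sample. The control and stressed samples were far apart, and the stressed groups lay close together. In limma the rise was 2.63 in the depression-susceptible (adjusted p = 0.0049), 2.92 in the anxiety-susceptible (adjusted p = 0.0067) and 3.10 in the insusceptible group (adjusted p = 0.0062), and the mean of the stressed groups was 7.38-fold above control (log2 2.88 ± 0.13 SE).

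Sik1, a kinase that restrains CREB co-activators and is itself induced by cyclic AMP, stood at -7.05 and -6.77 in control, -4.56 and -4.48 in the depression-susceptible, -3.07 in the anxiety-susceptible and -4.10 in the insusceptible sample. Its probe exceeded background clearly on 1 control array and on all 12 stressed arrays, and the anxiety-susceptible sample was the highest. Its rise was 3.02 ± 0.11 SE over the stressed groups (limma adjusted p = 0.002), a size that rests on control signals near background. Sik1 passed the filter on dim probes only through the stressed arrays, so its test against control adds no support. The list of MAPK feedback genes, to which Sik1 and Rasgrf1 were assigned, had 12 genes tested. In the stressed mean 5 of them were lower and 2 higher, beside 22.6% and 13.5% of all genes, and the list's median was -0.08. Sik1 and Rasgrf1 were the 2 that were shared and higher, and 1 was shared and lower, beside 3.11% and 2.81% of all genes. The lower one was Dusp6, the phosphatase that dephosphorylates ERK, at -0.30 and -0.14 in control, -1.55 and -1.24 in the depression-susceptible, -1.04 in the anxiety-susceptible and -1.10 in the insusceptible sample. Its stressed mean was lower by 0.96 on the log2 scale, written as a difference of -0.96 ± 0.13 SE (limma adjusted p = 0.014).

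For 3 of the 15 strongest rises the control signal was well above background on none of its arrays, so only a lower bound of the fold can be given, set against the dimmest measured signal of each array and holding for the processed signal alone. Pdia2, a protein disulfide isomerase, was at least 2.44-fold higher in the depression-susceptible, at least 7.88-fold higher in the anxiety-susceptible and at least 5.39-fold higher in the insusceptible group. Tnfrsf4, the T-cell co-stimulatory receptor OX40, was at least 4-fold, at least 7.08-fold and at least 5.53-fold higher in the same order. Sfxn2, a mitochondrial sideroflexin, was at least 2.6-fold, at least 4.75-fold and at least 5.03-fold higher. These 3 genes passed the filter on dim probes only through the stressed arrays, so their tests against control add no support. Pdia2 was not shared after normexp background correction.

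The other strong rises were measured on control arrays too, Uvrag on 3 of the 4, Scp2d1 on 1 of them and the rest on all 4. Uvrag and Scp2d1 passed the filter on dim probes only through the stressed arrays, so their tests against control add no support. Ints13, a subunit of the Integrator complex that processes small nuclear RNAs, went from -5.23 and -5.13 in control to -3.10 and -2.92 in the depression-susceptible, -2.44 in the anxiety-susceptible and -2.35 in the insusceptible sample, a stressed mean 5.97-fold above control (limma adjusted p = 0.0019). Trmt1, a tRNA methyltransferase, was 5.05-fold higher and Uvrag, which acts in autophagy and endosome traffic, was 5.47-fold higher. Among genes of immune function, Il22ra2, a soluble decoy receptor for interleukin-22, was 4.44-fold higher, and RT1-M1-2, a class I histocompatibility gene whose close relatives may share its signal, was 4.93-fold higher. Ttll3, which attaches glycine to tubulin in cilia, was 4.25-fold higher. Scp2d1, Fam228a and Lipogenin rose 5.02-fold, 5-fold and 4.75-fold. For these genes the limma adjusted p of the stressed mean lay between 0.0017 and 0.0055.

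The shared rises came mostly from dim probes. The median mean signal of the shared higher genes was -2.72, that of the shared lower genes -0.43 and that of all genes tested -0.38. Of the 352 higher genes, 300 were well above background on all 4 control arrays and 20 on none of them. Under quantile normalization all 3 signs were kept by 349 of the 352 and under normexp by 352, and 214 of them were shared under both. Of the 318 lower genes, all 3 signs were kept by 312 and 278, and 145 were shared under both.

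**Figure D2:**
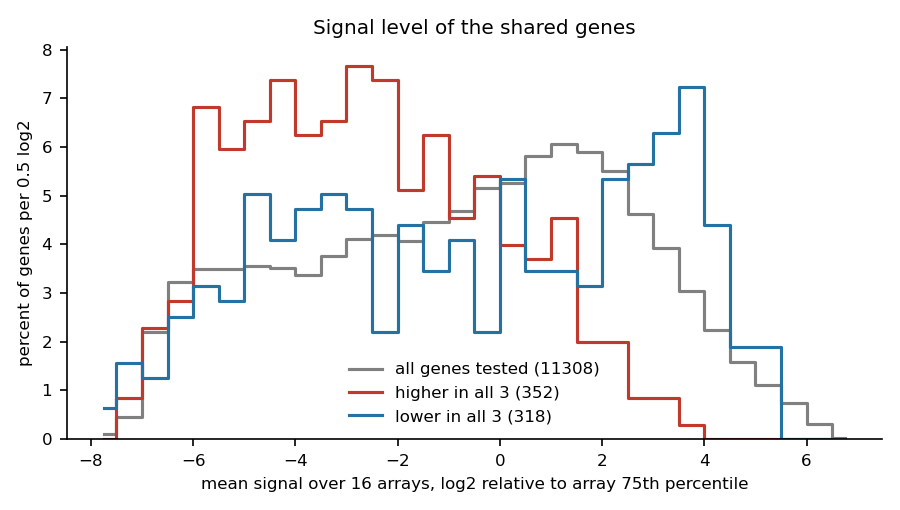
Distribution of probe signal, averaged over the 16 arrays and given as log2 relative to the array's 75th percentile, for all 11308 genes tested (grey), the 352 genes higher (red) and the 318 lower (blue) in all 3 stressed groups, as a percent of each set per step of 0.5. The red curve is shifted to the left, with its median at -2.72 beside -0.38 for all genes.

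Several collagen genes were higher in all 3 groups, while others were not. Of 19 collagen and laminin genes tested, 6 were shared and higher (Col5a1, Col11a2, Col2a1, Col4a1, Col7a1 and Col9a2) and 0 were shared and lower, beside 3.11% and 2.81% of all genes. In the stressed mean 8 were higher and 3 lower (Col4a4, Col8a1 and Lama3), beside 13.5% and 22.6% of all genes. The median over the list was 0.22, or 0.12 under quantile normalization. Col5a1, a chain of type V collagen, was at -6.00 and -5.86 in control, -4.07 and -3.96 in the depression-susceptible, -2.93 in the anxiety-susceptible and -3.19 in the insusceptible sample. Col11a2, a chain of type XI collagen, was at -1.61 and -1.42 in control, -0.33 and -0.19 in the depression-susceptible, 0.42 in the anxiety-susceptible and 0.34 in the insusceptible sample. Every stressed sample lay above both control samples for both genes, and the stressed means were 5.88-fold and 3.2-fold above control (limma adjusted p = 0.0018 and 0.0033). Of the interstitial collagens typical of fibroblasts, Col1a2 stood at a stressed mean difference of 0.01 ± 0.07 SE and Col3a1 at 0.16 ± 0.08 SE, neither past the test (limma adjusted p = 0.96 and 0.18); these and the 3 lower genes were picked after their values were seen. Vegfa, the endothelial growth factor, was shared and higher as well, from 1.98 and 1.85 in control to 2.73 and 2.64 in the depression-susceptible and 2.59 in each of the other samples, 1.63-fold above control (limma adjusted p = 0.011).

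A group of splicing regulators was higher in all 3 groups; it was assembled after the values were seen, and its counts are a description. Of 45 genes tested from splicing factor families, 7 were shared and higher (Clk1, Clk4, Srsf7, Prpf39, Hnrnpdl, Hnrnph2 and Tra2a) and 0 were shared and lower, while 14 were higher and 6 lower in the stressed mean. Over all genes tested, 3.11% were shared and higher and 2.81% shared and lower, and 13.5% were higher and 22.6% lower in the stressed mean. The median over these families was 0.00, moving to 0.24 under quantile normalization and -0.04 under normexp, so the families as a whole had no settled direction. Clk1, a kinase that phosphorylates SR splicing factors, was at 1.95 and 1.93 in control, 2.90 and 2.83 in the depression-susceptible, 3.52 in the anxiety-susceptible and 3.42 in the insusceptible sample. Its stressed mean was higher by 1.33 ± 0.07 SE (limma adjusted p = 0.0028). Srsf7, an SR protein, was higher by 1.58 ± 0.08 SE and Clk4 by 1.27 ± 0.10 SE (limma adjusted p = 0.0029 and 0.0063). Because the cRNA was primed at random along the transcript, an array probe reads retained introns or alternative exons only where it lies in them, and isoforms were not resolved.

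**Figure D3:**
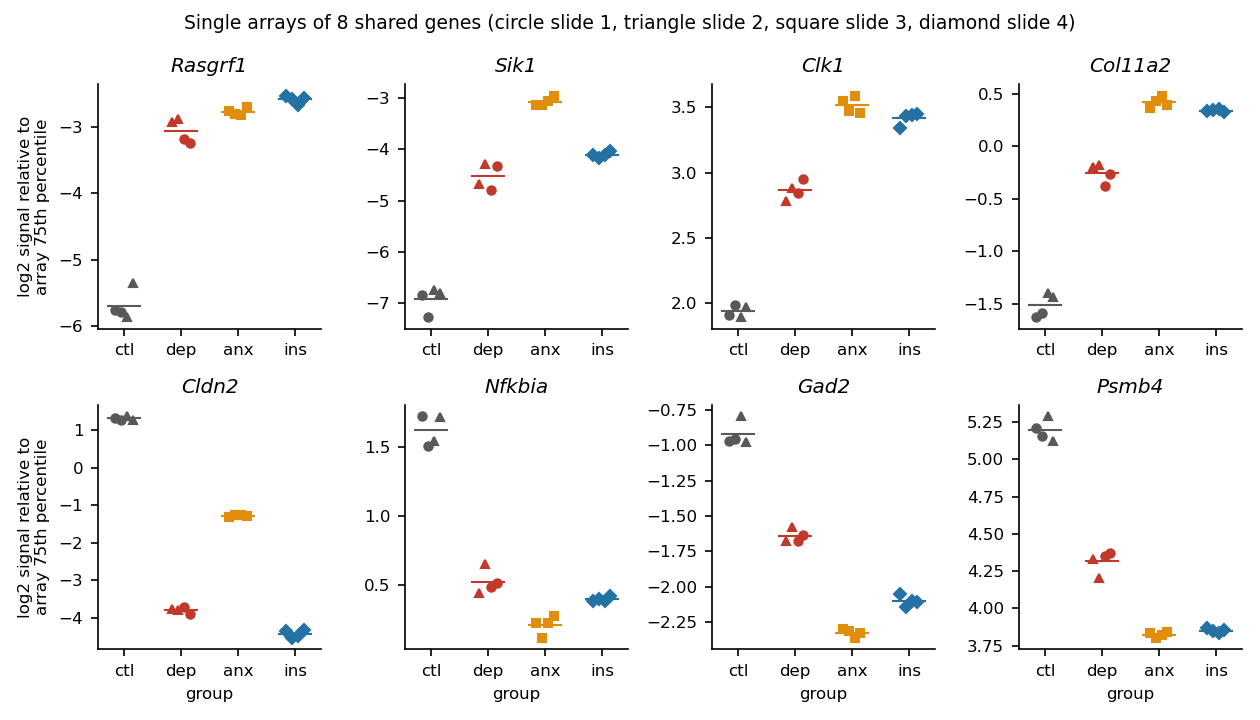
Log2 signal of 8 shared genes on every array relative to the array's 75th percentile, by group (ctl control, dep depression-susceptible, anx anxiety-susceptible, ins insusceptible). Symbols give the slide and bars the group mean; all 12 stressed arrays lie above the control arrays for Rasgrf1, Sik1, Clk1 and Col11a2 and below them for Cldn2, Nfkbia, Gad2 and Psmb4.

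Genes of the choroid plexus were among the largest falls. Of 20 choroid plexus genes tested, 18 were shared and lower and 0 shared and higher, and all 20 were lower in the stressed mean. Over all genes tested the same shares were 2.81%, 3.11% and 22.6%. The list's median difference was -3.38 in the depression-susceptible, -1.74 in the anxiety-susceptible and -3.40 in the insusceptible group, beside -0.06, -0.12 and -0.06 over all genes. These genes were known from earlier results of these data to be low after stress, so the count is not independent evidence of a direction. In bulk tissue, fewer cells of a type and less RNA per cell cannot be told apart. How much choroid plexus each dissection held was not measured by other means.

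Cldn2, a tight-junction claudin of leaky epithelia, stood at 1.30 and 1.32 in control, -3.81 and -3.77 in the depression-susceptible, -1.28 in the anxiety-susceptible and -4.43 in the insusceptible sample. Control samples were high, the anxiety-susceptible sample was intermediate and the others were low. In limma the difference from control was -5.10 in the depression-susceptible (adjusted p = 0.0017), -2.59 in the anxiety-susceptible (adjusted p = 0.006) and -5.74 in the insusceptible group (adjusted p = 0.002). Aqp1, the water channel of the apical plexus membrane, was at 1.36 and 1.40 in control, -2.98 and -2.97 in the depression-susceptible, -1.18 in the anxiety-susceptible and -4.19 in the insusceptible sample. Mfrp, a frizzled-related membrane protein whose promoter is given above, was at 3.80 and 3.77 in control, -1.85 and -1.76 in the depression-susceptible, 1.31 in the anxiety-susceptible and -2.29 in the insusceptible sample. Sostdc1, a secreted inhibitor of BMP and WNT signalling, went from 2.77 and 2.72 in control to -2.47 in both depression-susceptible samples, 0.74 in the anxiety-susceptible and -3.86 in the insusceptible sample. The stressed means of Cldn2, Aqp1, Mfrp and Sostdc1 were 22.3-fold, 17.9-fold, 26.2-fold and 24.5-fold below control. All 4 followed the same order of samples.

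The fall of these genes was smaller in the anxiety-susceptible group than in the other stressed groups by the test of the difference itself. The depression-susceptible minus anxiety-susceptible difference was -2.52 ± 0.09 SE for Cldn2, -3.12 ± 0.10 SE for Mfrp and -3.21 ± 0.09 SE for Sostdc1 (limma adjusted p = 0.017, 0.015 and 0.012). The anxiety-susceptible minus insusceptible difference was 3.15 ± 0.10 SE, 3.60 ± 0.11 SE and 4.60 ± 0.10 SE for the same genes, each with a limma adjusted p of 0.026. Among all shared lower genes, 14 passed between depression-susceptible and anxiety-susceptible rats, 7 between anxiety-susceptible and insusceptible rats and 1 between depression-susceptible and insusceptible rats. Of the 352 shared higher genes 0 passed in any of these comparisons in limma. Over all 11308 genes, 39, 12 and 12 passed in the order depression-susceptible against anxiety-susceptible, depression-susceptible against insusceptible and anxiety-susceptible against insusceptible; at an unadjusted p under 0.05 there were 3442, 3334 and 1202, and after quantile normalization 1170, 551 and 50 passed. The anxiety-susceptible and insusceptible arrays each lie on a slide of their own, so these differences cannot be told apart from slide.

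Further choroid plexus genes among the strongest falls were Clic6, an intracellular chloride channel protein, Slc4a5, a sodium bicarbonate cotransporter, and Abca4, a lipid transporter. Clic6 fell from 0.37 and 0.73 in control to -2.89 and -2.65, -1.94 and -2.67 in the depression-susceptible, anxiety-susceptible and insusceptible samples. Slc4a5 was not well above background on any insusceptible array, where it was at least 16.2-fold lower than control. Outside the list, Cltrn, an amino acid transporter chaperone, was at least 54.9-fold lower and Slco1a5, an organic anion transporter, at least 50.9-fold lower in the insusceptible group, where neither was well above background. Lmx1a, a transcription factor of the roof plate from which the plexus develops, stood at -0.80 and -0.85 in control, -3.95 and -3.86 in the depression-susceptible, -2.78 in the anxiety-susceptible and -4.31 in the insusceptible sample (limma adjusted p of the stressed mean = 0.0017). The phospholipase gene Pla2g5 fell 8.34-fold, the methyltransferase gene Bhmt2 7.44-fold and the endothelial proteoglycan gene Esm1 5.36-fold in the stressed mean; Bhmt2 was well above background on 3 of the 4 insusceptible arrays, and Esm1 and Abca4 on 1 of them. Baiap2l1, an actin and membrane adaptor, was at least 7.59-fold lower in the insusceptible group. Adipoq, which encodes the hormone adiponectin and is mainly a product of fat tissue, was at -2.39 and -2.27 in control, -7.07 and -5.99 in the depression-susceptible, -4.85 in the anxiety-susceptible and -7.12 in the insusceptible sample; it was at least 12.5-fold lower in the insusceptible group.

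The 2 choroid plexus genes that were not shared were Ttr and Col8a1. Ttr, transthyretin, the most abundant secreted product of the plexus, differed from control by -1.50 in the depression-susceptible, 0.53 in the anxiety-susceptible and -2.89 in the insusceptible group. Its direction thus went against the other members in the anxiety-susceptible group. The signal summed over the list, in which the bright Ttr probe weighs most, was 7.55 and 7.38 in control, 5.54 and 5.39 in the depression-susceptible, 7.23 in the anxiety-susceptible and 4.55 in the insusceptible sample on the log2 scale. Of the 20 members, 1 was not well above background on any depression-susceptible array and 3 on any insusceptible array. Ttr and Col8a1 were picked after their values were seen.

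**Figure D4:**
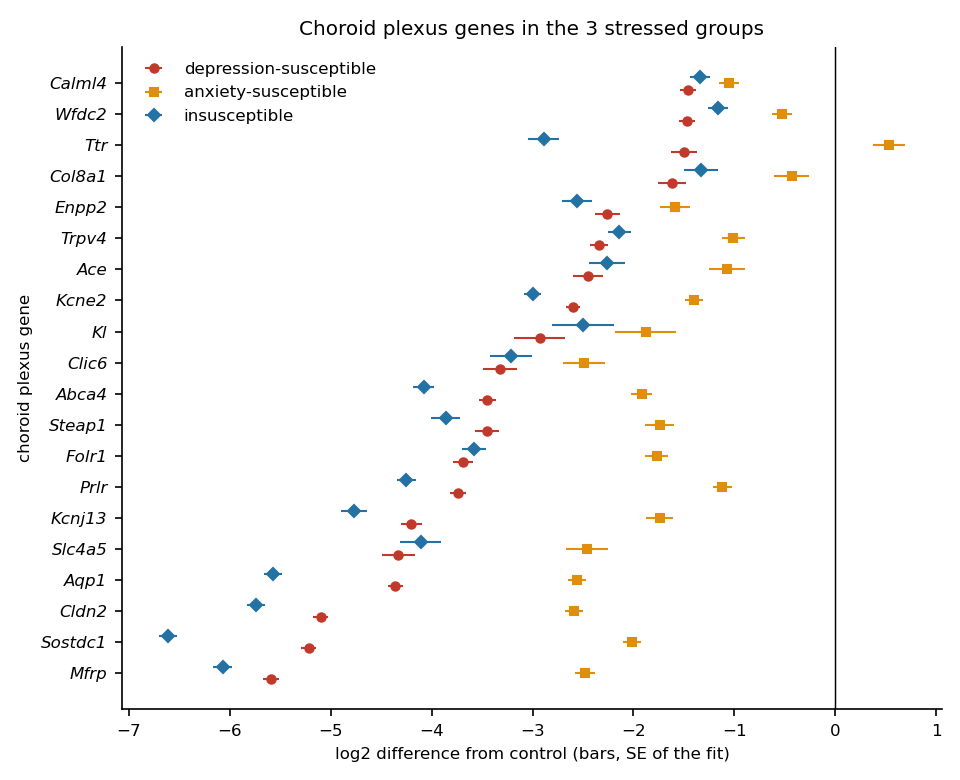
Log2 difference from control of the 20 choroid plexus genes in the depression-susceptible (circles), anxiety-susceptible (squares) and insusceptible (diamonds) groups, with SE bars of the fit. All genes lie left of 0 in every group except Ttr in the anxiety-susceptible group (0.53), and the squares lie nearest to 0.

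Of 68 markers of ependyma, meningeal fibroblasts, red blood cells, endothelium, astrocytes and oligodendrocytes, 6 were shared (8.82%), beside 5.93% of all genes. Of 9 genes of ependyma and motile cilia 1 was shared, the ciliary gene Cfap126, which fell from 0.33 and 0.48 in control to -1.34 and -1.21, -0.63 and -1.88 in the depression-susceptible, anxiety-susceptible and insusceptible samples (limma adjusted p of the stressed mean = 0.0029). In the stressed mean 6 of these 9 were lower and 0 higher, beside 22.6% and 13.5% of all genes, and their median was -0.71. Under quantile normalization 3 of them were shared and lower, and under normexp 2. Of 13 genes of meningeal fibroblasts 1 was shared and higher, the GABA and taurine transporter Slc6a13 (2.56-fold; not shared after quantile normalization), and 3 were shared and lower, among them the growth factor Igf2 (3.63-fold) and the proteoglycan Fmod (2.46-fold). Igf2 is also made by the choroid plexus. The red blood cell list had 1 shared gene of 11, Ahsp, the alpha-haemoglobin stabilising protein, which was lower by a stressed mean of -0.95 ± 0.08 SE (limma adjusted p = 0.0073). After normexp its difference shrank to -0.25 and it was not shared, while 4 genes of the list were shared and higher. The haemoglobin genes went apart: Hbb-b1 stood at -0.68 and -0.63 in control, 3.61 and 3.66 in the depression-susceptible, -1.22 in the anxiety-susceptible and 0.30 in the insusceptible sample. It passed limma's test in each group, with differences of 4.29, -0.57 and 0.95, and so counts among the 17 genes with unlike signs, as do its relatives Hbb-bs and Hbbl1, whose signals it may share. Endothelial, astrocyte and oligodendrocyte lists had 0 shared genes of 10, 11 and 14 tested in limma; in the stressed mean 1, 1 and 0 were higher and 0, 0 and 2 lower. The part of these cell types in the shared genes was not tested.

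Microglial genes were shared in 2 of 17 cases, both lower, beside 5.93% of all genes. In the stressed mean 4 of the 17 were lower and 0 higher, beside 22.6% and 13.5% of all genes. Itgam, the integrin CD11b, was at -2.54 and -2.30 in control, -4.42 and -4.25 in the depression-susceptible, -3.59 in the anxiety-susceptible and -3.46 in the insusceptible sample. The fall of Csf1r, the receptor for colony-stimulating factor 1, was small, at -0.58 ± 0.06 SE in the stressed mean (limma adjusted p = 0.011), and no longer passed after quantile normalization, where the difference was -0.14.

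Feedback genes induced by glucocorticoids were shared in the downward direction where they were shared. Of 19 tested, 3 were shared and lower (Nfkbia, Ddit4 and Tsc22d3) and 0 were shared and higher, beside 2.81% and 3.11% of all genes. Under quantile normalization 2 were shared and lower, and under normexp 4. In the stressed mean 13 were lower and 1 higher, against 22.6% and 13.5% of all genes. The median over the list was -0.40 (-0.27 under quantile normalization), beside -0.08 over all genes. Nfkbia, the inhibitor that holds NF-kappaB in the cytoplasm, was at 1.62 and 1.63 in control, 0.50 and 0.55 in the depression-susceptible, 0.21 in the anxiety-susceptible and 0.39 in the insusceptible sample. All stressed samples lay close together and well below control, and the stressed mean difference was -1.25 ± 0.06 SE (limma adjusted p = 0.0028). Ddit4, an inhibitor of mTOR signalling, had a stressed mean difference of -0.72 ± 0.07 SE (limma adjusted p = 0.0089), but was not shared after quantile normalization. Tsc22d3, also called GILZ, stood at -0.71 ± 0.07 SE.

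The receptors themselves were not among the shared genes. Of 8 genes for corticosteroid receptors and corticotropin-releasing hormone signalling, 0 were shared. Over all genes 5.93% were shared, so a list of this size can hold none. In the stressed mean 0 of the 8 were higher and 1 lower, beside 13.5% and 22.6% of all genes. Nr3c1, the glucocorticoid receptor, was at 2.97 and 2.86 in control, 2.97 and 2.96 in the depression-susceptible, 2.63 in the anxiety-susceptible and 2.72 in the insusceptible sample. Its stressed mean difference of -0.14 ± 0.07 SE did not pass (limma adjusted p = 0.19), and its sign turned under quantile normalization. Nr3c2, the mineralocorticoid receptor, was the lower one, at -0.64 ± 0.08 SE (limma adjusted p = 0.012); its differences were -0.29, -0.79 and -0.85 in the depression-susceptible, anxiety-susceptible and insusceptible groups, and the first passed with slide as a block (adjusted p = 0.039) but not without it (adjusted p = 0.13). Fkbp5, a co-chaperone that dampens the glucocorticoid receptor, stood at -0.26, 0.13 and 0.44, and Crh, the releasing hormone, at -0.12, -0.38 and -0.57 in the same order, none past the test in limma (adjusted p from 0.079 to 0.63), except that the first Fkbp5 difference passed with slide as a block (adjusted p = 0.038).

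Among cytokine and NF-kappaB genes 2 of 13 were shared, both lower: Nfkbia and Il6. Of all genes 5.93% were shared. In the stressed mean 4 of these 13 were lower and 1 higher. Il6, the cytokine interleukin-6, was at -4.73 and -4.88 in control, -6.36 and -6.46 in the depression-susceptible, -7.03 in the anxiety-susceptible and -5.98 in the insusceptible sample. It was well above background on all 4 control and all 4 depression-susceptible arrays, on no anxiety-susceptible array and on 1 insusceptible array, and was at least 3.53-fold lower in the anxiety-susceptible group. After normexp background correction it was not shared. Of 23 genes of interferon response and antigen presentation 0 were shared in limma. In the stressed mean 0 of them were higher and 9 lower, beside 13.5% and 22.6% of all genes.

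Of 16 immediate early genes and 8 neurotrophin genes tested, 0 and 0 were shared in limma, where 5.93% of all genes were shared, so lists of this size can hold none; in the stressed mean 0 and 1 were higher and 4 and 2 lower. Bdnf, the brain-derived neurotrophic factor, was at 1.34 and 1.57 in control, 0.90 and 1.19 in the depression-susceptible, 0.18 in the anxiety-susceptible and 0.51 in the insusceptible sample. All stressed samples lay below control. The depression-susceptible difference of -0.41 passed limma's test with slide as a block (adjusted p = 0.018; -0.44 on slide 1 and -0.38 on slide 2) but not without it (adjusted p = 0.16), while -1.28 and -0.94 in the other groups did (adjusted p = 0.021 and 0.033). Fos, an activity-induced transcription factor, differed from control by 0.37, 1.06 and -0.28 in the depression-susceptible, anxiety-susceptible and insusceptible groups; the first passed with slide as a block (limma adjusted p = 0.022) but not without it (adjusted p = 0.18).

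Genes of inhibitory neurons contributed 2 shared genes, Gad2 and Npy, out of 17 interneuron genes tested, and both were lower. Of all genes 5.93% were shared. In the stressed mean 5 of the 17 were lower and 1 higher, beside 22.6% and 13.5% of all genes. The list's median was -0.36, moving to 0.04 under quantile normalization, so the list as a whole had no settled direction. Gad1 stood at 0.15 ± 0.08 SE and did not pass (limma adjusted p = 0.18). Gad2, which makes GABA at nerve terminals, was at -0.96 and -0.89 in control, -1.66 and -1.62 in the depression-susceptible, -2.33 in the anxiety-susceptible and -2.10 in the insusceptible sample. Its stressed mean was 2.14-fold below control (limma adjusted p = 0.0039), and it was the 1 shared gene of 22 GABA synapse genes, beside 5.93% of all genes. Of these 22, 8 were lower and 0 higher in the stressed mean, beside 22.6% and 13.5% of all genes. Npy, neuropeptide Y, was at 4.63 and 4.46 in control, 4.03 and 3.98 in the depression-susceptible, 3.24 in the anxiety-susceptible and 3.14 in the insusceptible sample. It was 2.12-fold lower in the stressed mean (limma adjusted p = 0.0058), although its depression-susceptible call was near the threshold (adjusted p = 0.048) and it was not shared after quantile normalization or normexp. Wfs1, an endoplasmic reticulum membrane protein that marks CA1 pyramidal cells, was the 1 shared gene of 14 subfield markers, beside 5.93% of all genes, and fell 2.48-fold. In the stressed mean 4 of the 14 were lower and 0 higher, and their median was -0.25, or -0.07 under quantile normalization. Whether CA1 cells changed was not tested.

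At synapses, 2 of 29 synaptic vesicle genes were shared and lower and 0 were shared and higher, beside 2.81% and 3.11% of all genes. Syt1, the calcium sensor of vesicle release, was at 1.79 and 1.68 in control, 1.16 and 0.99 in the depression-susceptible, 0.47 in the anxiety-susceptible and 0.53 in the insusceptible sample, a stressed mean 2.06-fold below control (limma adjusted p = 0.0071). Of the 29, 13 were lower and 2 higher in the stressed mean, beside 22.6% and 13.5% of all genes. Syt1 was not shared under quantile normalization or normexp. Of 17 glutamate receptor genes 1 was shared and higher, Grm2, the presynaptic metabotropic receptor 2, and 0 were shared and lower. In the stressed mean 3 of the 17 were higher and 2 lower, beside 13.5% and 22.6% of all genes. Grm2 was well above background on no control array and was at least 3.13-fold, at least 3.53-fold and at least 3.82-fold higher in the depression-susceptible, anxiety-susceptible and insusceptible groups, but was not shared under normexp. It passed the filter on dim probes only through the stressed arrays, so its test against control adds no support.

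In the large housekeeping complexes the shared genes were all lower. Over all genes tested, 2.81% were shared and lower and 3.11% shared and higher. In the stressed mean 22.6% of all genes were lower and 13.5% higher. Of 37 proteasome genes 3 were shared and lower (Psmb4, Psma6 and Psma5) and 0 higher, while 25 were lower and 0 higher in the stressed mean. Psmb4, a subunit of the catalytic core's beta ring, was at 5.18 and 5.21 in control, 4.36 and 4.27 in the depression-susceptible, 3.82 in the anxiety-susceptible and 3.85 in the insusceptible sample, a stressed mean 2.29-fold below control (limma adjusted p = 0.0034). Of 68 oxidative phosphorylation genes 4 were shared and lower, with 32 lower and 0 higher in the stressed mean. Of 69 ribosomal protein genes 5 were shared and lower, with 38 lower and 1 higher in the stressed mean. The medians over these 3 lists were -0.42, -0.41 and -0.42, beside -0.08 over all genes, but shrank to -0.22, -0.08 and -0.09 under quantile normalization, so their size depends on the normalization. The counts of shared lower genes did too: for the proteasome, oxidative phosphorylation and ribosomal lists they were 2, 1 and 0 under quantile normalization and 10, 6 and 11 under normexp. Psmb4, Ndufb8, Rpl41 and Rps15a were not shared after quantile normalization. Cox8b, a subunit of cytochrome c oxidase, had the lowest stressed mean difference of its list (-1.70), from -1.51 and -1.35 in control to -3.76 and -3.63, -2.45 and -3.24 in the depression-susceptible, anxiety-susceptible and insusceptible samples. Of 23 heat shock genes 0 were shared and higher and 1 shared and lower, the mitochondrial chaperonin Hspd1 (1.91-fold, and not shared after quantile normalization). Of 17 genes of endoplasmic reticulum stress 0 were shared and higher and 1 shared and lower, Herpud1 (1.85-fold), a component of protein degradation at that membrane. At 3.11% of all genes, lists of this size can hold no shared higher gene. In the stressed mean 9 heat shock genes were lower and 0 higher, and 5 and 1 of the endoplasmic reticulum list. Of 18 cholesterol and lipid synthesis genes, 16 glycolysis genes and 14 clock genes, 0 were shared in limma, and 7, 5 and 5 were lower and 1, 0 and 0 higher in the stressed mean.

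**Figure D5:**
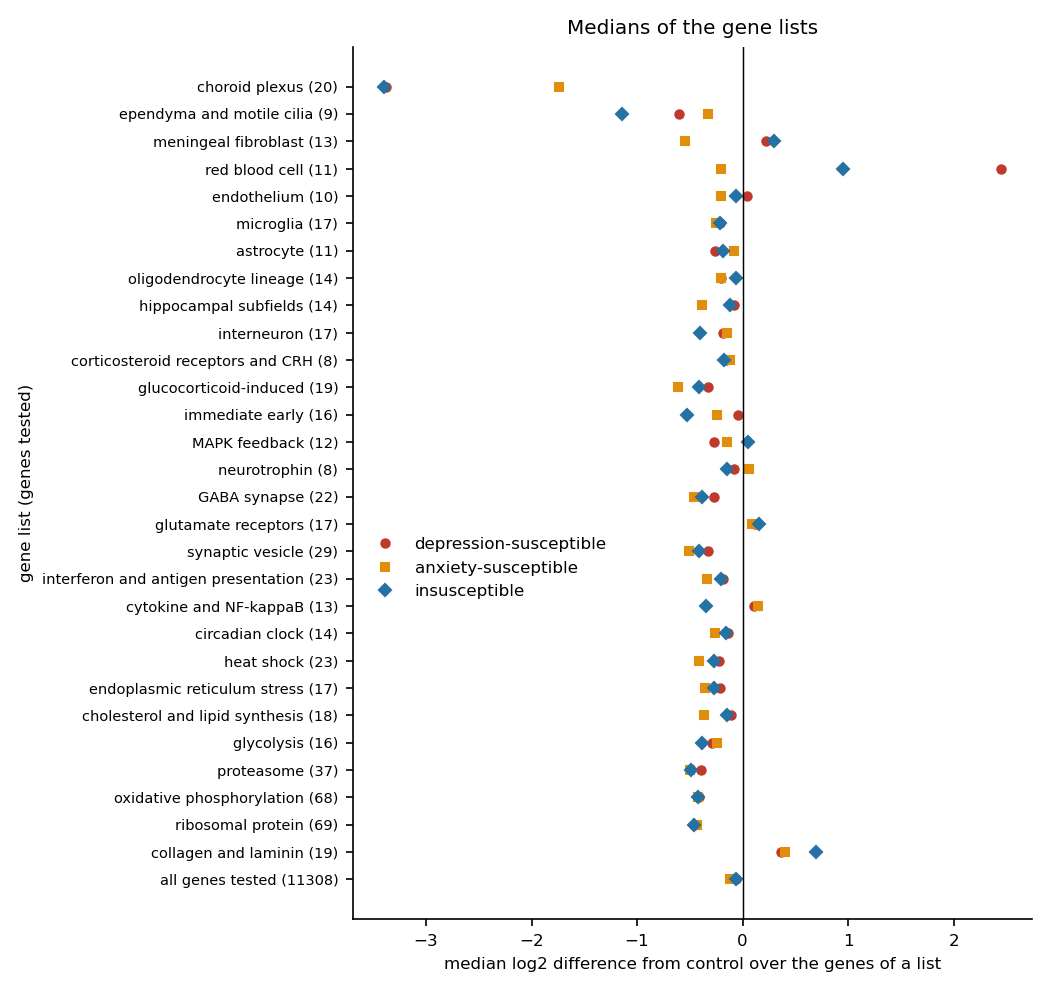
Median log2 difference from control over the genes of each list in the depression-susceptible (circles), anxiety-susceptible (squares) and insusceptible (diamonds) groups, with the number of genes tested in brackets and all genes at the bottom. The choroid plexus list lies farthest to the left, at -3.38, -1.74 and -3.40 and the red blood cell list is spread from 2.45 to -0.20.

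The 8 UGT1A symbols tested were all shared and lower, with stressed mean differences between -0.91 and -0.86. They encode glucuronosyltransferases that conjugate steroids, bilirubin and drugs, and they are alternative first exons of 1 locus that share their remaining exons, so their probes may read the same transcripts and count as 1 observation. This group was picked after the values were seen.

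The arrays also carry RefSeq non-coding transcripts, named here by their accessions without a version. Of 1100 tested, 40 were higher in all 3 stressed groups (3.64%) and 17 were lower (1.55%). XR_007122 was at -5.45 and -5.23 in control, -2.98 and -2.94 in the depression-susceptible, -2.89 in the anxiety-susceptible and -2.73 in the insusceptible sample, a stressed mean 5.58-fold above control (limma adjusted p = 0.002). XR_006299 was well above background on no control array and was at least 5.41-fold, at least 7.29-fold and at least 5.22-fold higher in the depression-susceptible, anxiety-susceptible and insusceptible groups. It passed the filter on dim probes only through the stressed arrays, so its test against control adds no support. XR_006990 and XR_007564 were 5.06-fold and 5.72-fold higher in the stressed mean, but were well above background on 2 and 1 of the 4 control arrays, so these folds rest on control signals near background. These probes too passed the filter only through the stressed arrays, so their tests against control add no support. Downward, XR_009412 went from -2.87 in both control samples to -5.01 and -5.03, -4.31 and -5.44 in the depression-susceptible, anxiety-susceptible and insusceptible samples. XR_007360, XR_009404 and XR_006830 fell 2.24-fold, 1.83-fold and 1.75-fold, and XR_006830 no longer passed after quantile normalization. The genes at these accessions are not named in the sources used here.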

How the data were processed

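Hippocampal RNA of 16 samples was read on one-colour (Cy3) Agilent arrays. Per the labels' protocols, labelling used random priming along the transcript after removal of ribosomal RNA. The deposited scanner tables hold spot intensity values from Agilent Feature Extraction 11.0.1.1 (protocol GE1_1100_Jul11), background-subtracted within each array, per the file headers. The deposited value table holds log2 values of the authors; it tracked quantile-normalized signals (correlation at least 0.9999) and was tried as an alternative, and the sources used here do not give its software. Array design 026403 and the build cell rn4 are from the same headers. Probes were named through their RefSeq targets with a gene table of assembly GRCr8 (14274 of 15323 messenger RNA probes matched, 13888 symbols), and promoters came from the RefSeq table of that assembly.

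Control and outlier spots were removed before averaging the repeated spots of a probe. The log2 processed signal was lowered by each array's 75th percentile. Of 24684 probes, those well above background on at least 4 of 16 arrays were tested (17845, after 35 with no value in a group were left out), and the brightest probe stood for a symbol, giving 11308 genes. The number of samples limits the precision. Arrays of 1 group on 1 slide, inferred from scan time and array position in the headers, were averaged where they differed about as spots do, giving 6 samples. limma 3.58.1 in R 4.3.3 (lmFit, contrasts.fit, eBayes; 4 group means, two-sided, Benjamini-Hochberg over the probes tested) had 2 residual and 1.94 prior degrees of freedom. Tables and plots used Python 3.11.15, pandas 2.3.3 and matplotlib 3.10.9. The fit was also run on simulated data with independent noise and no slide effect, so that run does not test the layout of slides used here.

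The members, gene lists and tests were chosen with earlier results of these data known. Genes named were the 15 higher and 15 lower shared genes, and 4 and 4 non-coding probes, with the largest smallest difference among those that kept their signs under quantile normalization and normexp and were well above background on all control arrays (falls) or all stressed arrays (rises); the first 2 shared genes of each list and direction; 5 genes with unlike signs; and 12 genes of stress biology whether shared or not. Others are said to be picked after their values were seen. The values of 1 named gene are not reported here. Alternatives were quantile normalization, normexp (offset 50, on median signals, leaving out spots with a local background over 10 times the array median), the deposited value table, another scaling reference, other filters, other ways of counting arrays and leaving out arrays or samples. No batch correction was applied, since 2 stressed groups lie on slides of their own.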

Additional observations from a re-analysis of the deposited data

Results flagged for a closer look

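Among 308 groups of 4 arrays (77 named genes and probes in 4 groups), 27 (8.77%) held 1 array that stood apart from the other 3, with a gap to its neighbour, as a share of the group's range, above Dixon's critical value; chance gives about 1 in 20. All but 1 of these are given here. In the control group these were replicate 1 for Trmt1 (0.945 of the range, -6.01 beside -5.66 to -5.64), replicate 2 for Adipoq (0.848), Baiap2l1 (0.842) and Grm2 (0.915), and replicate 3 for Bhmt2 (0.869), Sostdc1 (0.947), XR_007360 (0.973) and Gad2 (0.873). In the depression-susceptible group they were replicate 1 for Abca4 (0.838) and Hbb-bs (0.893), replicate 2 for Lipogenin (0.886) and Clic6 (0.951), and replicate 4 for Il22ra2 (0.842, -3.58 beside -4.59 to -4.43) and Lmx1a (0.831). In the anxiety-susceptible group they were replicate 1 for Bdnf (0.909), replicate 2 for XR_006299 (0.857) and Psma6 (0.843), replicate 3 for Cnmd (0.833) and replicate 4 for Defb1 (0.940, -8.16 beside -7.44 to -7.39). In the insusceptible group they were replicate 1 for Trmt1 (0.923), Ahsp (0.870), Ddit4 (0.950) and Vegfa (0.878), replicate 2 for Slc6a13 (0.881) and Itgam (0.873), and replicate 4 for Scp2d1 (0.859). Several of these ranges are narrow: Ddit4 stood at 3.19 on the array apart and at 3.15 on the others.

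Stressed groups differed from each other in 19 comparisons of named genes by the test of the difference in limma (adjusted p from 0.0069 to 0.046). For genes of the choroid plexus and Slco1a5, the depression-susceptible minus anxiety-susceptible difference was -2.52 for Cldn2, -1.80 for Aqp1, -3.12 for Mfrp, -2.80 for Slco1a5 and -3.21 for Sostdc1, and the anxiety-susceptible minus insusceptible difference was 3.15, 3.01, 3.60, 3.95 and 4.60 for the same genes. The haemoglobin genes Hbb-b1, Hbb-bs and Hbbl1 were higher in the depression-susceptible than in the anxiety-susceptible group by 4.85, 4.82 and 4.74 and than in the insusceptible group by 3.34, 3.29 and 3.32. Cnmd, which encodes chondromodulin, had a depression-susceptible minus anxiety-susceptible difference of -3.06 and an anxiety-susceptible minus insusceptible difference of 3.42. Defb1, a defensin, had a depression-susceptible minus anxiety-susceptible difference of 3.04. Cnmd was well above background on no insusceptible array and Defb1 on no anxiety-susceptible array. Each of these differences sets groups on different slides against each other, so group and slide cannot be told apart.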

How the results depend on the processing

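Counts are given in the order stressed mean higher, stressed mean lower, shared higher, shared lower, and were 1524, 2550, 352 and 318 as reported. With normexp, 3232 genes were higher in the stressed mean; it also moved the median over all probes in the insusceptible group from 0.01 to 0.14. Scaling by probes well above background on all 16 arrays gave 1446 lower in the stressed mean and 193 shared lower. With no filter there were 1422 lower in the stressed mean, 154 shared higher and 90 shared lower, over 13863 genes. With 16 arrays as separate samples the counts were 3096, 4909, 1297 and 2843, and with slide as a random block (correlation 0.466) 2714, 4530, 1192 and 2639. With the replicate number of the labels as a block they were 3003, 4795, 1237 and 2696; the numbers do not pair the samples, since same-numbered control and depression-susceptible arrays lay on different slides and correlated at -0.56 to -0.44. Without 1 sample or array the counts ranged from 335 to 1540, from 278 to 2573, from 46 to 422 and from 46 to 360. The samples that moved them by over 1.5 times were both controls (336, 278, 70 and 47 without slide 1; 335, 366, 61 and 46 without slide 2) and both depression-susceptible samples (914, 1250, 58 and 62 without slide 1; 800, 1148, 46 and 64 without slide 2). With slide as a fixed block for the depression-susceptible group, chosen after seeing the data and with 1 residual degree of freedom, 592 genes were shared higher and 1047 shared lower. Fewer samples leave fewer degrees of freedom in these fits. Without the anxiety-susceptible or the insusceptible sample that whole group was absent. Shared then meant the 2 remaining stressed groups, and the stressed mean covered those groups alone. The upper ends of the 2 ranges of shared genes came from the fit without the anxiety-susceptible sample, so they do not count genes shared by all stressed groups. Leaving out single arrays gave 301 to 355 shared higher and 244 to 320 shared lower.

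Of the values of single genes, 1665 of 1694 kept their direction and side of the threshold without 1 array or sample, and 863 of 898 were kept under the other settings. Among the latter, differences within single slides had no test, and counted as kept when their sign stayed and their size moved little. Those that turned sign were Nr3c1 (0.14 with quantile normalization, 0.15 with the deposited value table, 0.00 with the other scaling reference), Gfap (0.08 and 0.08 with the first 2 of these), Fkbp5 (-0.07 without the insusceptible sample, the lowest of a range up to 0.19) and, within slide 2, Crh (0.13 in the depression-susceptible group); the cause was not tested. Of 65 named shared genes and probes, 54 were also shared under quantile normalization and 57 under normexp. The stressed-mean call of XR_006830, Csf1r, Ndufb8 and Rps15a was lost under quantile normalization and the value table. Dim signals limit the shared rises: normexp, which adds an offset, gave smaller differences for them, such as 1.34 in place of 3.31 for Pdia2 in the stressed mean.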
